A study of Rattus norvegicus with 18 samples.

Results

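Dbp and Nr1d1 are 2 output genes of the circadian clock, and their transcripts were followed here in whole rat kidney that had recovered from ischemia and in sham-operated kidney. The clones whose annotation gives the symbol Dbp or Nr1d1 were taken, 1 clone for each gene out of 1489 clones with 1 gene symbol and 2304 clones in all. The pair was chosen by earlier results of the same ARF-sham contrast, so the ARF-sham values of both genes are a description and carry no test. The study compared 6 rats that underwent 52 min of renal ischemia, reperfusion and 35 days of recovery (ARF rats, for acute renal failure) with 6 sham-operated rats. Each of the pairs A to F held 1 ARF and 1 sham rat, and its RNAs were hybridised to 2 spotted cDNA arrays with the dyes Cy3 and Cy5 exchanged, which makes 12 arrays. On 6 further arrays, R1 to R6, sham rats were compared with each other. Strain, sex, age and the time of day at which the kidneys were taken are not given in the sources used here.

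The clock is a loop of transcription factors in nearly every cell. CLOCK and BMAL1 bind E-box sequences and switch on their targets, among them Dbp and Nr1d1, and the products of other targets then shut CLOCK and BMAL1 down, so that these transcripts rise and fall over the day. Dbp encodes a PAR bZIP factor that carries the rhythm to genes of metabolism and detoxification by binding D-boxes. Nr1d1 encodes REV-ERBα, a heme-binding nuclear receptor that represses Bmal1 and other genes with ROR response elements. In the kidney the clock is known for its part in the daily course of sodium and water transport.

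The promoters are shown because CLOCK and BMAL1 are known to act on both genes through E-boxes. They cover the 250 bases before the transcription start, 5′ to 3′ on the gene's strand, from RefSeq's GRCr8 annotation, with clock motifs in capitals. Dbp has 1 annotated start here, on chromosome 1 (plus strand), and Nr1d1 has 2, on chromosome 10 (minus strand).
Dbp, chr1:105312006-105312255: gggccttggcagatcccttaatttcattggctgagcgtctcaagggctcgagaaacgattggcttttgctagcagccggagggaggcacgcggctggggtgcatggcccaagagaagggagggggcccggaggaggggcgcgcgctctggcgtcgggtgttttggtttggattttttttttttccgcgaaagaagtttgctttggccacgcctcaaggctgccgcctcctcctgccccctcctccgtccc
Nr1d1, upstream start, chr10:84231813-84232062: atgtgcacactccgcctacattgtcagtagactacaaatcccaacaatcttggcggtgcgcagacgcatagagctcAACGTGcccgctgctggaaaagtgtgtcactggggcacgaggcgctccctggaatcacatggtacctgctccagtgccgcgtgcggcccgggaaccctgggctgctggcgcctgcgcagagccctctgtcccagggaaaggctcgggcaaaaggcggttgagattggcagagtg
Nr1d1, downstream start, chr10:84229455-84229704: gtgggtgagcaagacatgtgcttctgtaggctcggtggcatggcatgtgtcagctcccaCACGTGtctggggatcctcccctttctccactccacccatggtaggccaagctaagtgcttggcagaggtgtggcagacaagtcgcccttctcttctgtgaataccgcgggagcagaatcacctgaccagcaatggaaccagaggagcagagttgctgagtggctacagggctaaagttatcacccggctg

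The E-box CACGTG lay in the downstream Nr1d1 window, beginning 191 bases before the start. The E-box-like CACGTT lay in the upstream Nr1d1 window on the opposite strand, read there as AACGTG, beginning 174 bases before the start. Of 33469 rat promoter windows of this length, 5.59% hold CACGTG and 4.07% hold CACGTT on either strand. The Dbp window holds neither. None of the 3 windows holds the ROR response element core TAGGTCA (2.26% of all windows) or the D-boxes TTATGTAA (0.828%) and TTACGTAA (0.108%). A match is a description of these letters, and its absence says nothing about sites elsewhere in the gene.

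The deposited values are log ratios whose base and direction are not stated by the labels. A positive value is taken here to mean more RNA in the ARF kidney, since the labels put the ARF rat in channel 2 of the arrays with sham in Cy3 and channel 2 over channel 1 is the usual ratio. That direction is assumed, and with the opposite one on all arrays every log ratio below changes sign, while correlations keep theirs. The sham-sham arrays are taken as channel 2 over channel 1, and the levels of the ARF rats rest on both assumptions. The fit held 947 clones, those measured in both dye orientations in 4 or more pairs. Of these, 9 passed the threshold in the fit of ARF against sham (limma, Benjamini-Hochberg adjusted p under 0.05), which is 0.950%, and 6 of these lay below 0, which is 0.634%. The count was 0 without pair E or without pair F, 1 without B, 4 without A, 18 without D and 19 without C. No call is given for Dbp or Nr1d1, because the fit used the contrast that led to their choice.

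Dbp had a negative log ratio in every pair. The pair values were -0.11 in A, -0.28 in B, -0.46 in C, -0.35 in D, -0.47 in E and -0.29 in F. Pair A lay nearest to 0 and pairs C and E farthest from it. The mean was -0.33 ± 0.13 (SD, n = 6 pairs), the 10th lowest mean among the 947 clones. Of 600 clones measured in all 6 pairs, 31 (5.17%) were below 0 in each of them.

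Single arrays and spots of Dbp carried the same sign almost throughout. All 12 arrays were below 0, from -0.62 to -0.088, and so were 23 of 24 spots. The exception was 1 spot of pair A with sham in Cy3, at 0.021, whose duplicate on the same array gave -0.29. The median difference between duplicate spots of Dbp was 0.094, against medians of 0.078 to 0.12 over all clones on these arrays. The arrays of a pair differed by 0.047 in A and by 0.30 in E, where sham in Cy3 gave -0.62 and sham in Cy5 gave -0.32.

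Nr1d1 was also below 0 wherever it was measured. Its pair values were -0.30 in A, -0.50 in B, -0.41 in E and -0.29 in F, with a mean of -0.38 ± 0.10 (SD, n = 4 pairs). Pair B lay lowest and pairs A and F highest. All 8 arrays and all 16 spots with a value were below 0. The mean was the 6th lowest among the 947 clones, and of the clones with values in pairs A, B, E and F, 121 (14.6%) were below 0 in each of these.

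Pairs C and D gave no value for Nr1d1 on either array. Among the clones measured in the other 4 pairs, 114 in all had no value in both C and D. The deposited table leaves such cells empty, and no level can be given for them. Within the measured pairs the duplicate spots of Nr1d1 differed by a median of 0.038. The arrays of a pair differed by 0.060 in E and by 0.37 in F, where sham in Cy3 gave -0.47 and sham in Cy5 gave -0.10. In linear terms the mean of Dbp is 1.25-fold lower in ARF if the base is 2, 1.39-fold if it is e and 2.12-fold if it is 10. For Nr1d1 the same bases give 1.30-fold, 1.46-fold and 2.38-fold.

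**Figure D1:**
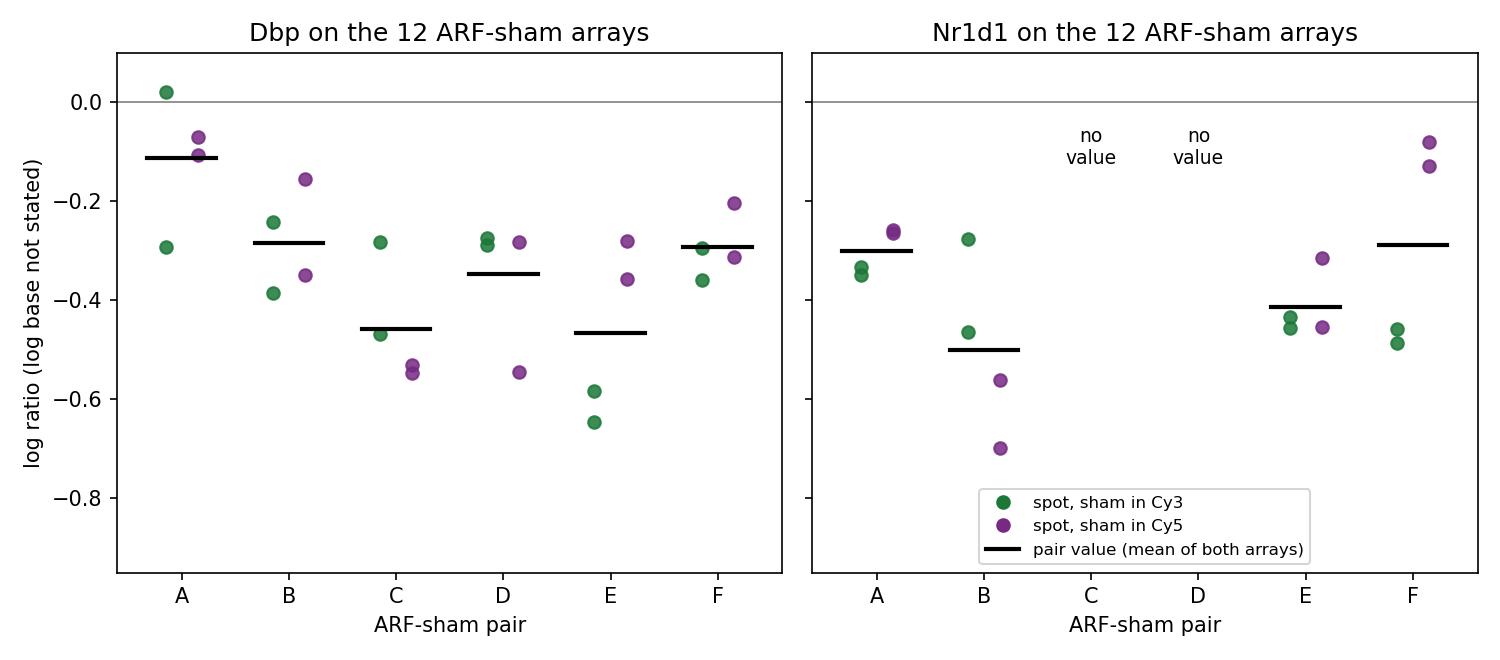
Log ratios of Dbp (left) and Nr1d1 (right) in the ARF-sham pairs A to F. Each point is 1 spot, green with sham in Cy3 and purple with sham in Cy5, and each black bar is the pair value. All spots but 1 of Dbp in pair A lie below 0, and Nr1d1 has no value in pairs C and D.

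The genes were next set against each other pair by pair. Dbp minus Nr1d1 was 0.19 in pair A, 0.22 in B, -0.053 in E and -0.0044 in F. Nr1d1 thus had the lower pair value in A and B, while in E and F both genes had nearly the same pair value. The single arrays were less even. With sham in Cy3 and in Cy5, the difference was 0.20 and 0.17 in A and 0.056 and 0.38 in B. It was -0.17 and 0.066 in E and 0.14 and -0.15 in F, so its sign changed with the dye in both. The mean difference of 0.087 ± 0.14 (SD, n = 4 pairs) was smaller than its spread between pairs, and it was 0.044 without pair B and 0.13 without pair E. Over these 4 pairs Dbp averaged -0.29 ± 0.14 and Nr1d1 -0.38 ± 0.10. A correlation over 4 pairs is not given.

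RNA of whole kidney mixes many cell types, and in such samples fewer cells of a type and less RNA per cell cannot be told apart. Markers of several cell types are given beside the values of both genes. Of 6 fibroblast and matrix markers 4 were tested and 2, Col1a1 and S100a4, passed above 0, and the median of these 4 ran from -0.031 in pair C to 0.66 in pair A. The thick limb and distal tubule markers had a median below 0 in all pairs, from -0.45 to -0.12, with 5 of 6 tested and Egf past the threshold. The proximal tubule markers, 4 of 6 tested, had pair medians between -0.37 and 0.055 with none past the threshold, and the collecting duct markers, 2 of 4 tested, between -0.48 and 0.096. Of 7 macrophage markers 1 was tested, the class II gene RT1-Ba, at -0.22 in pair E and up to 0.54 in pair F. Of 5 endothelial markers 1 was on the array and none was tested. The part of any of these in the values of Dbp and Nr1d1 was not tested. The array gives ratios and not levels, so the markers could not be used to check the tissue beyond having measurable signal.

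The exchange of dyes allowed the dye effect to be measured, which the choice of the genes did not use. It was taken as the array with sham in Cy3 minus the pair value. For Dbp it was -0.015 ± 0.083 (SD, n = 6 pairs, 4 below 0 and 2 above), and for Nr1d1 -0.031 ± 0.13 (n = 4, 3 below 0 and 1 above). Neither passed the threshold (limma, Benjamini-Hochberg adjusted p = 0.79 and 0.72), while 152 of 947 clones did, 16.1%, with 73, 55 and 61 clones when pair C, D or E was left out. The mean of Dbp was -0.34 with sham in Cy3 alone and -0.31 with sham in Cy5 alone, and that of Nr1d1 -0.41 and -0.34.

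The sham-sham arrays compare both genes between rats without ischemia, again outside the values that led to their choice. No 2 sham rats were compared again with the dyes exchanged, so these values mix the difference between rats with any dye effect. As channel 2 over channel 1, Dbp was 0.22 on R1 (rats A and F), -0.20 on R2 (A and E), 0.24 on R3 (B and F), 0.11 on R4 (B and D), 0.15 on R5 (C and F) and -0.026 on R6 (D and E). All 3 arrays with rat F in channel 2 were above 0. Nr1d1 was 0.13 on R1, -0.15 on R2, 0.25 on R4, -0.040 on R5 and -0.22 on R6, with no value on R3. Both genes had the same sign on 4 of the 5 arrays that measured both, with R5 the exception. These 4 include R6, where the Dbp spots of -0.28 and 0.23 differ in sign. How often other clones share the sign of Dbp on these arrays was not counted. The largest sham-sham values in size were 0.24 for Dbp and 0.25 for Nr1d1, each from 1 spot.

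Neither gene passed the threshold over the sham-sham arrays. The mean was 0.082 ± 0.17 for Dbp (n = 6 arrays, limma adjusted p = 0.48) and -0.0060 ± 0.19 for Nr1d1 (n = 5, limma adjusted p = 0.97), while 24 of 857 clones passed, 2.80%. That count was 4, 0, 0 and 13 without R3, R4, R5 and R6. Rats recur on these arrays, F on 3 of them, so the arrays are not independent. The p-values set the mean against the spread between arrays. That mean depends on which rat was placed in which channel, so the p-values do not measure how far the sham rats differ. The largest size on any sham-sham array was smaller than that of Dbp in 28.0% of the 857 clones and smaller than that of Nr1d1 in 31.2%, against a median of 0.31. By this measure both genes lay below the median clone. Duplicate spots disagreed on some of these arrays: those of Dbp on R6 gave -0.28 and 0.23, and on R5 0.31 and -0.0027.

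**Figure D2:**
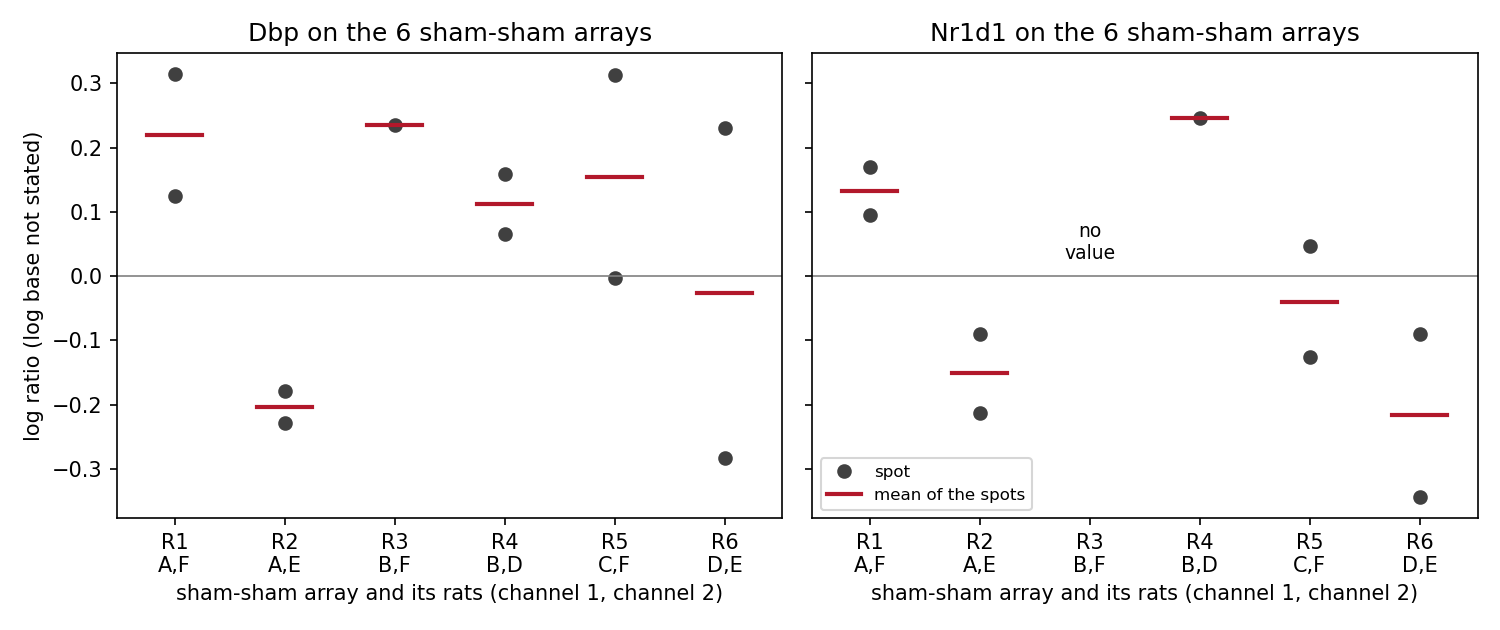
Log ratios of Dbp (left) and Nr1d1 (right) on the 6 arrays that compare sham rats, with the rats of channel 1 and channel 2 under each array. Points are spots and red bars their mean. Dbp is highest on R3 at 0.24 and Nr1d1 on R4 at 0.25, and the spots of Dbp on R6 lie on both sides of 0.

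These values rest on an order of rows that was inferred. Rows filled on the sham-sham arrays did not match those filled on the ARF-sham arrays as deposited, and exchanging adjacent blocks of 288 rows brought them together. In the order of the file, the Dbp rows hold values on R1 (-0.13) and R2 (0.36) alone, and the Nr1d1 rows range from -0.21 to 0.068 on the 6 arrays. With 2 values, Dbp could not be tested in that order.

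The links between rats allow a level for each rat to be estimated by least squares, relative to the mean of the 6 sham rats. Any dye effect on the sham-sham arrays stays in these levels. For Dbp the sham rats stood at 0.028 (A), -0.098 (B), 0.038 (C), -0.040 (D), -0.12 (E) and 0.19 (F). For Nr1d1 they stood at -0.0063 (A), -0.19 (B), 0.17 (C), 0.059 (D), -0.16 (E) and 0.13 (F). Rats B and E were thus lowest and rats C and F highest for both genes, though no neighbours in this order differ by more than the error of the loop of arrays described for Dbp. The SD over sham rats was 0.11 for Dbp and 0.15 for Nr1d1, against a median of 0.15 over 586 clones.

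Across the 6 sham rats the levels of Dbp and Nr1d1 had a Pearson r of 0.78 and a Spearman rho of 0.83, each with a two-sided exact permutation p = 0.058 over 720 pairings. This was the only relation computed of its kind, so the p-values were not adjusted, and neither was below 0.05. Without rats E and F, the farthest from the median of Dbp, r was 0.80 over 4 rats. The levels of both genes come from the same arrays and sum to 0, so the rats are not fully separate points. Over the 585 other clones the r with Dbp had a median of 0.27, and 20 clones had a higher r than Nr1d1.

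The levels of the ARF rats were built from the sham level and the pair value. For Dbp they were -0.084 (A), -0.38 (B), -0.42 (C), -0.39 (D), -0.59 (E) and -0.10 (F). The ARF rats B, C, D and E lay below the lowest sham rat at -0.12, and A and F lay within the sham range. For Nr1d1 they were -0.31 (A), -0.69 (B), -0.57 (E) and -0.16 (F), of which A, B and E lay below the lowest sham rat at -0.19. Of the ARF rats A, B, E and F, measured for both genes, B and E were lowest and A and F highest. The sham levels, lowest in B and E too, are part of these values. The pair values alone did not share this order. In these 4 pairs Dbp was lowest in E and F (-0.47 and -0.29) and Nr1d1 in B and E (-0.50 and -0.41). The levels of the ARF rats include the contrast used in the choice and carry no test. The sum around the closed loop of arrays R1, R3, R4, R6 and R2, which is 0 without error, was 0.27 for Dbp, against a median size of 0.29 over all clones with that loop, and R3 being empty left no loop for Nr1d1.

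**Figure D3:**
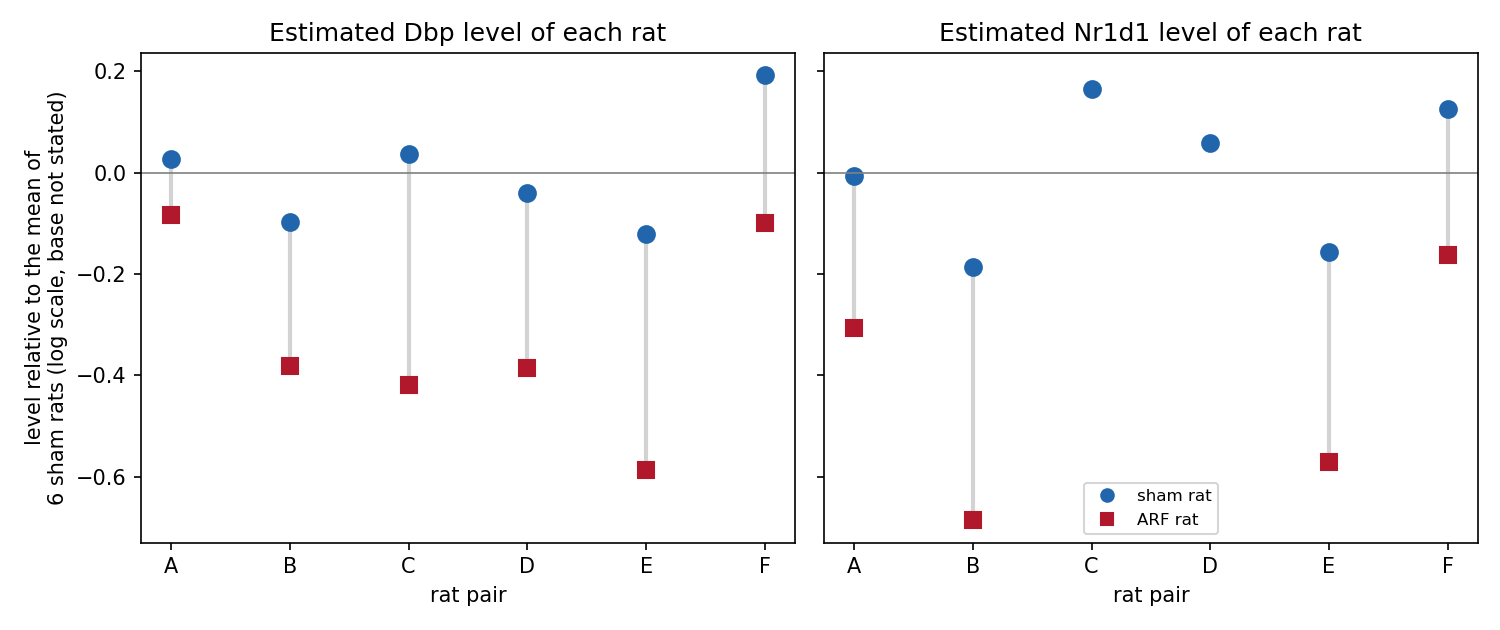
Estimated levels of Dbp (left) and Nr1d1 (right) in each rat, relative to the mean of the 6 sham rats. Blue circles are sham rats, red squares ARF rats, and gray lines join a pair. Sham rats span -0.12 to 0.19 for Dbp and -0.19 to 0.17 for Nr1d1, and ARF rats reach -0.59 and -0.69.

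Of 22 genes of the core clock besides Dbp and Nr1d1, Bmal1 alone was found among the clones with 1 symbol, and it had too few pairs for a test. Bmal1, the partner of CLOCK and a target repressed by REV-ERBα, is described although chosen after its values were seen. In pair E it had 0.28 with sham in Cy3 and 0.49 with sham in Cy5, a pair value of 0.38, where Dbp had -0.47 and Nr1d1 -0.41. The only other array with a value, pair D with sham in Cy3, gave -0.16 from 1 spot. The sign of Bmal1 thus differed between its only measured pair and the single array of the other.

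Nr1d1 shares its locus with Thra, which encodes the thyroid hormone receptor alpha. RefSeq's GRCr8 annotation places the genes on opposite strands of chromosome 10 with 1061 bases in common at the ends of their transcripts. A spotted double-stranded cDNA does not tell strands apart, and the sources used here do not say which part of either gene the clones cover. Thra had -0.033 in pair A, 0.089 in B, 0.22 in C, 0.27 in D, 0.41 in E and 0.18 in F, above 0 in 5 of 6 pairs and on 19 of 23 spots. In pairs B, E and F it was thus on the other side of 0 from Nr1d1, and in pair A close to 0. The mean of 0.19 ± 0.15 (SD, n = 6) did not pass the threshold (limma adjusted p = 0.20). On the sham-sham arrays Thra lay between -0.22 and 0.092.

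**Figure D4:**
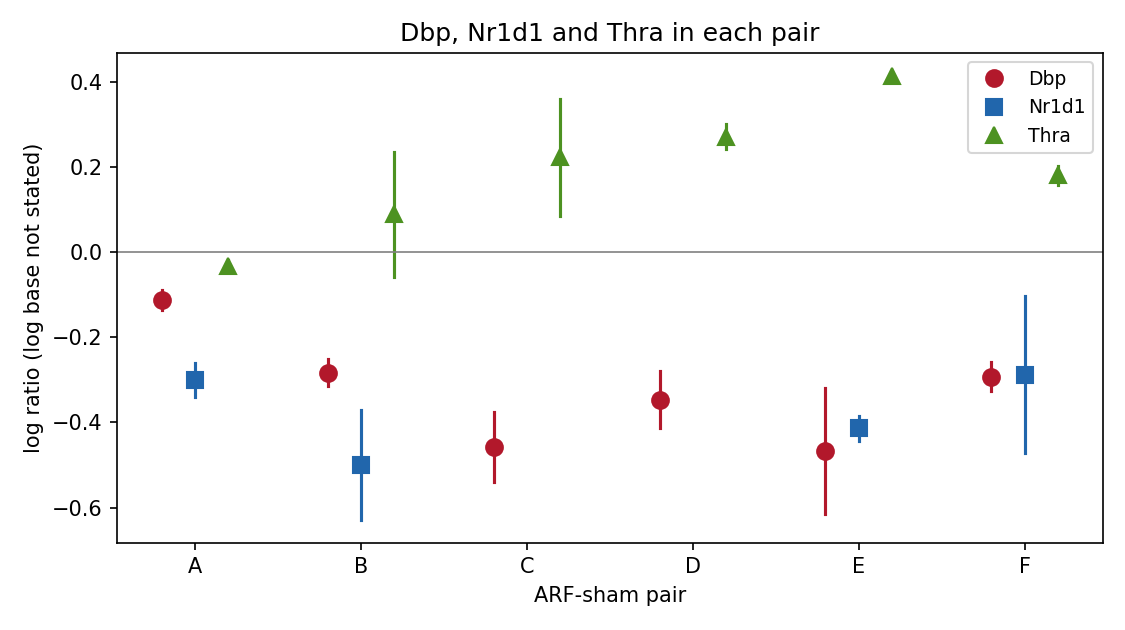
Pair values of Dbp (circles), Nr1d1 (squares) and Thra (triangles), with vertical lines between the 2 arrays of the pair. Dbp and Nr1d1 lie below 0 in every pair measured, and Thra lies above 0 in all pairs but A, where it is -0.033.

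Other genes were taken from 7 lists, called clock-related here, with 142 genes in all. The nuclear receptor and bZIP lists hold genes by family, as kin of Nr1d1 and Dbp, and a further list holds glucocorticoid-responsive genes. A gene of these lists need not be tied to the clock. Of the 142 genes, 39 were on the array under 1 symbol and 18 could be tested. None of the 18 passed the threshold in the fit of ARF against sham (limma, against 0.950% of all clones). An unadjusted p under 0.05 was found for 7 of the 18, against 139 of all 947 clones. The lists were chosen with earlier results of these data known, so these counts are a description. The means of the 18 genes were above 0 in 8 and below 0 in 10, with a median of -0.0094, against a median of 0.015 over all 947 clones. With limma's trend and robust options 0 of all clones passed. An unadjusted p under 0.05 was then found for 119 of all clones and for 6 of the 18.

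Targets of PAR bZIP factors come closest to an output of Dbp. Of 14 listed, 4 were tested and none passed, with 3 below 0 and 1 above. Gstt1, a glutathione transferase, was -0.21 ± 0.19 (n = 6, limma adjusted p = 0.22) and below 0 in 5 pairs, with 0.11 in pair C. Por, the electron donor of the cytochromes P450, had -0.13 ± 0.16 (n = 4), and the retinal dehydrogenase Aldh1a1 had -0.13 ± 0.17 (n = 6). Alas1, the first enzyme of heme synthesis and so a source of the REV-ERBα ligand, had 0.10 ± 0.18 (n = 6). None of these 4 kept 1 sign over its pairs.

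Partners and targets of REV-ERBα gave 2 testable genes of 12. The glucose-6-phosphatase gene G6pc1 had -0.013 ± 0.34 (n = 6), with 0.64 in pair C and -0.34 in pair B, and the lipoprotein lipase gene Lpl had 0.0044 ± 0.095 (n = 4). Both averages lay close to 0 beside their spread.

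Among 25 genes listed for clock-controlled kidney transport, which include regulators such as Sgk1, 5 were tested and none passed. Slc12a1, the salt cotransporter of the thick limb, was below 0 in 6 of 6 pairs at -0.31 ± 0.22 (limma adjusted p = 0.093), and with sham in Cy3 alone it was -0.39 and passed (limma adjusted p = 0.038), against -0.23 with sham in Cy5 alone (limma adjusted p = 0.25). Scnn1a, the sodium channel subunit of the collecting duct, was below 0 in 5 of 5 pairs at -0.22 ± 0.10 (limma adjusted p = 0.14). On the sham-sham arrays Scnn1a ran from -0.46 to 0.11 and Slc12a1 from -0.31 to 0.16. Both had the sign of Dbp and Nr1d1 in every pair measured. Both also stand among the cell type markers above, Slc12a1 for the thick limb and distal tubule and Scnn1a for the collecting duct. What lies behind the shared sign was not tested. Atp1b1, a subunit of the sodium pump, had -0.17 ± 0.30 (n = 6), with 0.42 in pair A against values from -0.43 to -0.18 in the others. Slc12a3, the distal salt cotransporter, had 0.12 ± 0.27 (n = 5), and -1.4 to -0.10 on the sham-sham arrays. Both differed by dye, with -0.025 for Atp1b1 and -0.084 for Slc12a3 with sham in Cy3 alone, and -0.31 and 0.30 with sham in Cy5 alone.

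Sgk1, a kinase induced by aldosterone and glucocorticoids that keeps the sodium channel at the membrane, had the largest mean of the lists. It was 0.40 in pair A, -0.12 in C, 0.83 in D, 0.49 in E and 0.51 in F, a mean of 0.42 ± 0.35 that did not pass (n = 5, limma adjusted p = 0.13). Without pair C it was 0.56 and passed (n = 4, limma adjusted p = 0.025), so the call turns on that pair. Of 16 genes that respond to glucocorticoids, the other one tested was the metallothionein Mt2A at -0.0057 ± 0.29 (n = 6).

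Nuclear receptors, the family of Nr1d1, were tested in 4 of 37 cases, all with a mean above 0 and none past the threshold. Nr2f2, an orphan receptor of the COUP-TF type, was above 0 in 6 of 6 pairs at 0.26 ± 0.10 (limma adjusted p = 0.058). With arrays centred on their medians it was 0.28 and passed (limma adjusted p = 0.045), and without pair D it was 0.29 and passed (limma adjusted p = 0.042). It differed by dye. With sham in Cy5 alone it was 0.53 and passed (limma adjusted p = 0.017), and with sham in Cy3 alone it was -0.014 (limma adjusted p = 0.95). The value above 0 thus came from 1 dye orientation. On the sham-sham arrays Nr2f2 ran from -0.51 to 0.13. The retinoic acid receptor Rara had 0.18 ± 0.13 and was above 0 in 4 of 4 pairs (limma adjusted p = 0.34), and the oxysterol receptor Nr1h2 had 0.066 ± 0.12 (n = 5). Over all 947 clones 512 had a mean above 0. Of 29 bZIP factors, the family of Dbp, 2 were tested, Ddit3 at -0.049 ± 0.17 and Nfe2l2 at -0.071 ± 0.21 (each n = 5).

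**Figure D5:**
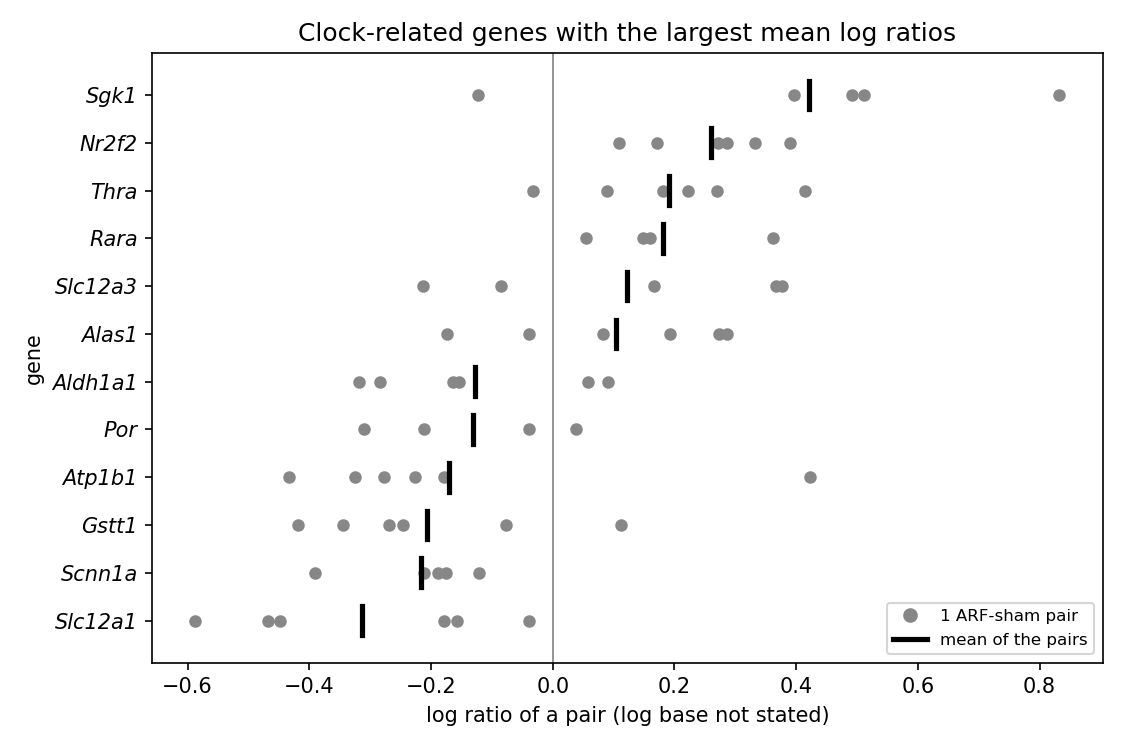
The 12 tested genes of the clock-related lists with the largest mean log ratios. Nr2f2, Rara and Thra come from the nuclear receptor list. Gray points are ARF-sham pairs and black bars the mean. Slc12a1 and Scnn1a lie below 0 and Nr2f2 and Rara above 0 in every pair measured, and none of the 12 passed the threshold. Nr2f2 with sham in Cy3 alone averaged -0.014.

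To find clones that vary over the pairs as Dbp does, the 419 other named clones with values in 6 pairs were ranked by Pearson r with it. The 5 highest were Rpl4 (r = 0.98), Rps23 (0.97), Rps7 (0.96), Tpt1 (0.96) and Rab11a (0.96), of which Rpl4, Rps23 and Rps7 encode ribosomal proteins, Tpt1 the translationally controlled tumor protein and Rab11a a small GTPase of endosome recycling. Each was highest in pair A, where Dbp lay nearest to 0. The lowest were the cytochrome oxidase subunit Cox5a (r = -0.94), the aldehyde dehydrogenase Aldh2 (-0.91) and Bcl7b (-0.90). The likeness is in the pattern and not in the level: Rpl4 averaged 0.036 ± 0.21 and Rps23 0.17 ± 0.16. With 6 points, 17 of the 419 clones had an r of 0.9 or more, and no test is given. Nr1d1, with 4 pairs, was not ranked.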

How the data were processed

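The authors deposited normalized log values, per the labels, with raw data from ImaGene 4.1 and spot filtering after an earlier method that the labels cite. The unit deposited by the authors is a log ratio of unstated base. Every array has a mean of 0, and 57.1% of cells are empty. Array medians lay between -0.042 and 0.029. Arrays held values for 914 to 2786 of 4608 spots. Arrays and rats, not reads, limit the precision.

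Duplicate spots lay 1152 rows apart and were averaged, then the 2 arrays of a pair. These correlated at r = 0.20 to 0.58 across clones, so both were read as running the same way. Names came from the platform annotation, updated by gene identifier through RefSeq (1483 of 1489 clones matched). The exchange of row blocks on the sham-sham arrays raised the agreement in which cells are filled, as a correlation with the ARF-sham arrays, from -0.011 to 0.49. As a further check, each sham-sham array was correlated across clones with the difference of its rats' pair values: r was 0.11 to 0.21 for R1 to R5 and -0.034 for R6. In the file's order it was -0.079 to 0.16. The 0.16 was on R6, so on that array the file's order gave the higher r.

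All clones with values in at least 4 pairs (or arrays) were tested against 0 with limma's eBayes (R 4.3.3, limma 3.58.1), with Benjamini-Hochberg adjustment over all clones, a procedure tested on simulated data. Rats are the replicates, and the pairing comes from the labels. Members and lists were chosen with earlier results of these data known. Named genes are both members, any listed gene past the threshold, the 12 listed genes with the largest means, and the 5 most and 3 least similar clones to Dbp. The remaining tested genes of the lists are given to complete each list. Alternatives changed centring, dye, spots, filters, the moderation, the block and the order of rows, and left out each pair or array. One alternative, Thra over the 4 pairs of Nr1d1, was chosen after seeing the data.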

Additional observations from a re-analysis of the deposited data

Results flagged for a closer look

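In 51 groups of 4 to 10 values of the named genes, 3 had a sample far from the others by Dixon's criterion, where chance marks about 1 in 20. None of the 3 was a group of Dbp or Nr1d1. Atp1b1 stood at 0.422 in pair A, against -0.43 to -0.18 in the other 5 pairs. Cox5a stood at -0.2023 in pair A, against -0.10 to -0.067 in the other 5. Gstt1 stood at 0.157 on sham-sham array R4, against -0.13 to -0.056 on the other 4 arrays that measured it.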

How the results depend on the processing

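The means of Dbp, Nr1d1 and their difference kept their sign and moved by less than 1 SD under all alternatives run. Leaving out 1 pair gave -0.37 to -0.30 for Dbp, -0.40 to -0.33 for Nr1d1 and 0.044 to 0.13 for the difference. Thra over the 4 pairs of Nr1d1 was 0.16. The 9 calls of ARF against sham became 15 with arrays centred on medians, 28 with sham in Cy3 alone, 5 with pairs on 1 array kept, 0 with trend and robust options, 2 with no replicate block (12 rat levels, 586 clones) and 0 to 19 with 1 pair left out (0 without E or F, 1 without B, 4 without A, 18 without D, 19 without C). The pair block is part of the log ratio itself. The 0 calls among clock-related genes became 1 with arrays centred on medians (Nr2f2), 1 with sham in Cy3 alone (Slc12a1), 1 with sham in Cy5 alone (Nr2f2) and 0 to 1 with 1 pair left out. The 152 dye calls became 55 to 175 with 1 pair left out, with 73, 55 and 61 without C, D and E. The 24 sham-sham calls became 10 with the first spot alone and 0 to 32 with 1 array left out, with 4, 0, 0 and 13 without R3, R4, R5 and R6. The dye effect of Dbp, not called, turned to 0.010 with the second spot alone and ran from -0.034 to 0.012 with 1 pair left out, above 0 without E. The sham-sham mean of Nr1d1, not called, turned to 0.0027 with median centring and 0.022 with the first spot alone. With 1 array left out it ran from -0.069 to 0.047, above 0 without R2 (0.030), R5 (0.0024) and R6 (0.047). In the file's order Dbp had too few sham-sham values to test. The dye effect of Nr1d1, with 4 pairs, could be refitted only without C or D, where it has no values. The causes were not tested.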

Other observations

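Several nuclear receptors had values in 3 pairs and were outside the tests. The bile acid receptor Nr1h4 was below 0 in each of them, from -0.38 to -0.12, with a mean of -0.28 ± 0.14. The glucocorticoid receptor Nr3c1 ran from -0.30 to 0.20 and the retinoid X receptor Rxra from -0.20 to 0.34, with both signs in each. Nr2f6 was above 0 in its 3 pairs, from 0.0029 to 0.27. These genes were chosen after their values were seen.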
